A study of Mus musculus with 6 samples.

Results

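The RNA helicase genes of the DDX and DHX families were followed through an eCLIP experiment on ZFP36L2 in MLTC-1, a line grown from a mouse tumour of Leydig cells, the testis cells that make testosterone. Members were the genes whose symbol in the authors' deposited peak table was Ddx or Dhx followed by a number and at most 1 letter, with 1 gene of chromosome Y left out by the rule. This gave 42 of 10818 named genes (28 DDX and 14 DHX) and 176 of 55449 peaks (106 in DDX and 70 in DHX genes). RefSeq annotation of assembly GRCm38.p6 lists 52 genes by the same rule, and the remaining 10, among them Dhx36, Dhx29 and Ddx47, were not analysed here. The table symbol Ddx39 matched RefSeq's Ddx39a as an older name, the other 41 symbols matched directly, and all 176 peaks lay inside the RefSeq gene on the same build (mm10).

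In eCLIP, cells are irradiated so that bound proteins are fixed to RNA, an antibody recovers 1 protein, and the RNA pieces held by it are sequenced. All 6 libraries came from MLTC-1 cells crosslinked at 254 nm with 400 mJ per cm2. They were 2 immunoprecipitation (IP) libraries with the ZFP36L2 antibody ab70775, their 2 inputs, 1 IP library with rabbit IgG (ab313801) and its 1 input. The cells are 1 established line, no library was made from cells without ZFP36L2, and the labels do not say whether separate cultures were used. The titles number the material, each IP together with its input, and the IgG number differs from those of ZFP36L2. Antibody and numbered sample therefore cannot be told apart. For each peak the table states how far ZFP36L2 lies over IgG on the log2 scale, with p before and after adjustment, but no value of a library, so depth and the spread between libraries are unknown, and the IgG arm rests on 1 IP library. A peak was called higher or lower with ZFP36L2 where the adjusted p over all peaks was under 0.05 and the log2 fold change reached 1 in either direction.

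DDX proteins are named after the DEAD motif of their ATPase core and DHX proteins after the related DEAH motif. They use ATP to unwind RNA or to strip proteins from it, and they act in splicing, ribosome assembly, mRNA export, translation and mRNA decay. ZFP36L2 is known to bind AU-rich elements in the 3′ UTRs of mRNAs and to recruit the deadenylation machinery, with which the helicase Ddx6 also works.

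Of the 176 peaks, 8 were called (4.55%, against 7.66% of all peaks), 4 of them higher with ZFP36L2 and 4 lower, which is 2.27% each. Over all peaks of the table the shares were 2.22% higher and 5.44% lower, so the higher share of the helicase peaks lay near that of the table. The higher peaks belonged to 4 of 42 genes (9.52%, against 5.04% of all genes), namely Ddx21, Ddx23, Ddx46 and Dhx8. The lower peaks belonged to Dhx8, Ddx3x, Ddx6 and Ddx42, again 9.52% of the genes, against 17.3% of all genes. Dhx8 was the gene with calls in both directions (0.989% of all genes had both). The other 35 genes (83.3%) had no called peak. At an unadjusted p under 0.05, 4 helicase peaks were higher (2.27%, against 2.93% of all peaks) and 9 were lower (5.11%, against 11.2%). These shares describe the members and were not compared by a test.

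**Figure D1:**
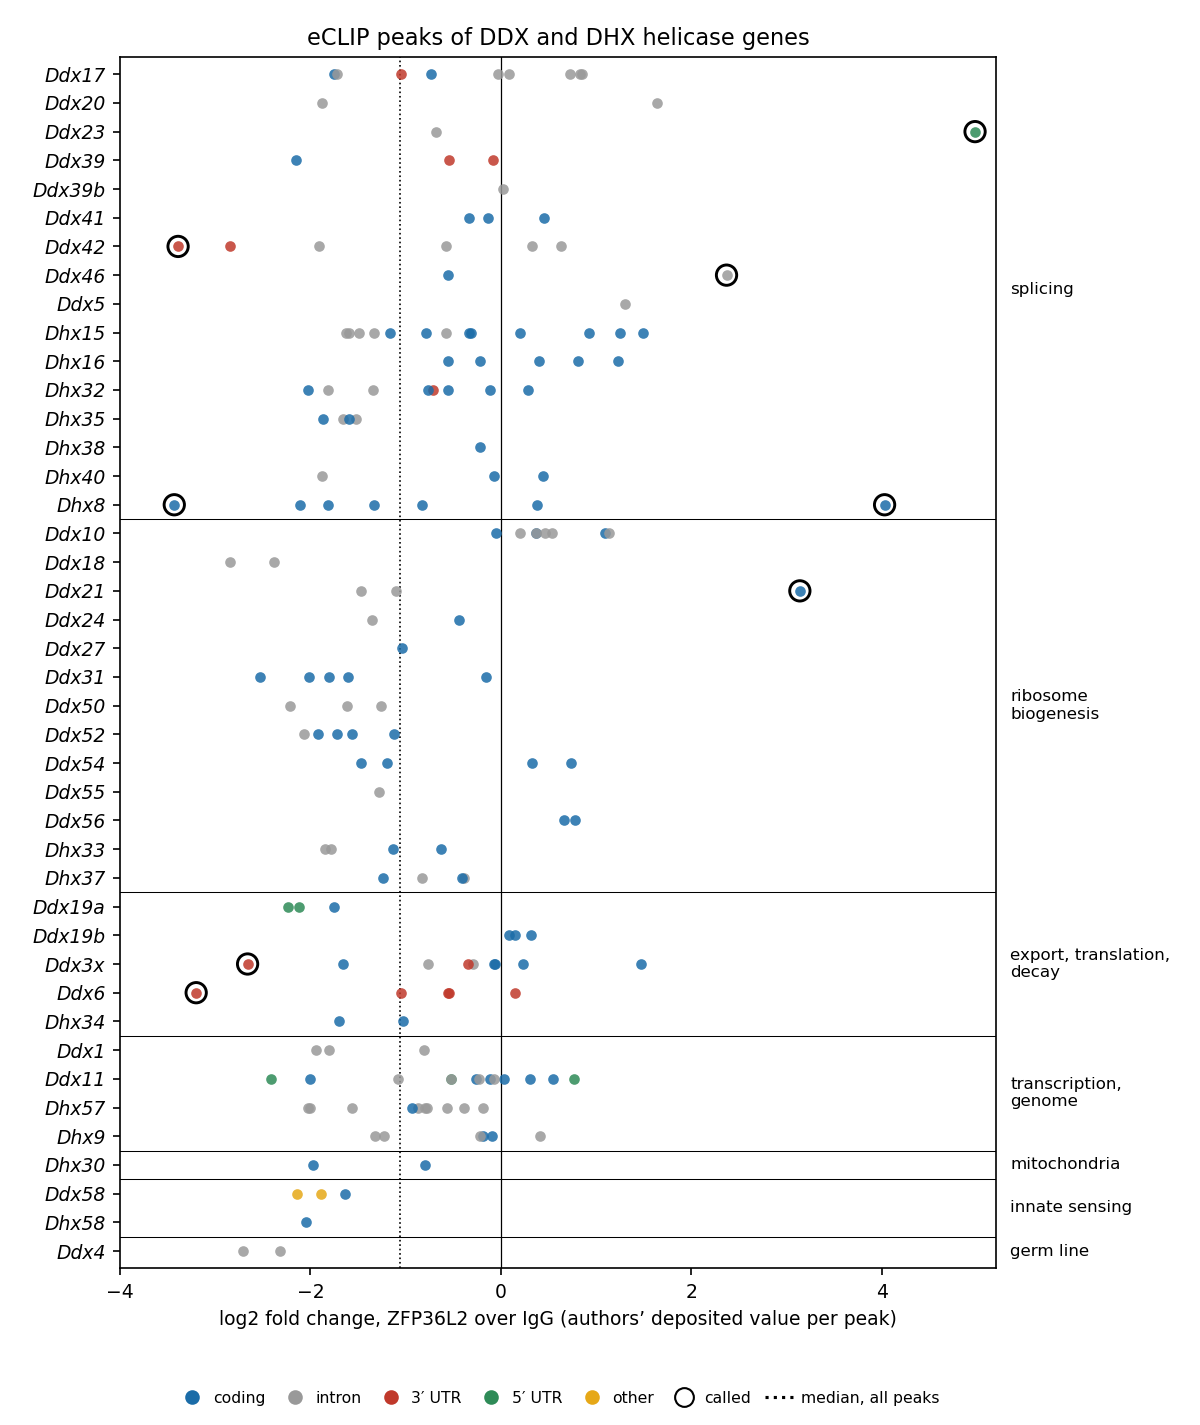
Log2 fold change of ZFP36L2 over IgG, as deposited, for each of the 176 peaks (points) of the 42 DDX and DHX genes. Genes are grouped by a main role assigned to each beforehand, and points are coloured by transcript region. Rings mark the 8 called peaks, and the dotted line is the median of all peaks in the table, -1.06. The 168 uncalled helicase peaks lie between -2.84 and 1.64.

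The best-supported call lay in 1 of the 13 helicases of ribosome biogenesis. Ddx21, a nucleolar helicase that couples rRNA transcription to rRNA processing, had 3 peaks. Its coding peak at chr10:62602130-62602264 (minus strand, gene ID ENSMUSG00000020075.8) stood at 3.14 on the log2 scale in the authors' deposited table (adjusted p = 2.1e-34). By adjusted p it was number 85 of the 55449 peaks. With 135 nucleotides it was also the longest helicase peak, against a median of 28.5 nucleotides for helicase peaks and 35 for all peaks. The other Ddx21 peaks touched each other in an intron and had -1.10 and -1.47 (adjusted p = 1 for both) in the authors' deposited table, so its values were above 0 at the gene's start and below 0 in the intron.

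The 5′ end of the Ddx21 peak was base 35 of the RefSeq gene. The RefSeq promoter sequence, which runs to base 50 of the gene, therefore holds the 16 bases with which the most strongly called helicase peak begins. They are shown in capitals after the 14 bases before them, followed by a whole peak of Ddx19a near its gene start that was not called, as a contrast (RefSeq, GRCm38.p6, both minus strand, chr10:62602249-62602278 and chr8:110997775-110997804).
Ddx21: tgtcgccctctctcCTAGCACGCGGTTGAG
Ddx19a: tgGCACTTGGCGCGGGCTTGCGTTCGGCGC
Of the 16 peak bases of Ddx21, 10 were G or C, as were 21 of the 28 peak bases of Ddx19a. The run of 30 bases of Ddx21 held no ATG. Coding is the deposited label of the whole Ddx21 peak, and where its coding part begins was not determined. The motif TATTTAT, the DNA form of the element that ZFP36 family proteins are known to prefer, was in neither run of 30 bases on either strand. It occurred on either strand in 0.244% of the last 30 bases of the 32851 RefSeq promoter windows, so its absence from these letters says nothing about binding. No sequence of the other called peaks was used here.

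The remaining 12 ribosome biogenesis helicases had no called peak. Ddx50, the paralogue of Ddx21 that lies 13493 bases from it on chromosome 10, had 3 intronic peaks at -1.26, -1.62 and -2.21 in the authors' deposited table. Ddx10 stood on the other side of the table's median, with 7 of 8 peaks above 0 and a range of -0.05 to 1.14 in the authors' deposited table. All 5 Ddx52 peaks lay between -2.07 and -1.12, and those of Ddx31 between -2.53 and -0.16, per the authors' deposited table. Ddx18 had the lowest median of any helicase gene, -2.61 over 2 touching intronic peaks, with -2.84 as its lower value in the authors' deposited table (adjusted p = 0.18). Of the 44 peaks of the 13 genes, 1 was called higher and 0 lower, beside 2.22% and 5.44% of all peaks. Their median was -1.12, near that of all peaks.

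Among the splicing helicases, 3 genes had a higher peak. Ddx23, a helicase of the U5 snRNP that acts during activation of the spliceosome, had the largest log2 fold change of the family, which the authors' deposited table gives as 4.98 (adjusted p = 2.6e-16). This peak, at chr15:98662823-98662849 (minus strand), was 27 nucleotides long, lay in the 5′ UTR and began at base 80 of the gene. It was number 110 by size among the 1231 higher peaks of the table. Its other peak, in an intron near the 3′ end of the gene, had -0.68 in the authors' deposited table (adjusted p = 1). Ddx46, a helicase that helps the U2 snRNP settle on the branch site, had an intronic peak at chr13:55645650-55645713 (plus strand) that the authors' deposited table puts at 2.37 (adjusted p = 0.00081). Its coding peak was listed at -0.56 in the authors' deposited table (adjusted p = 1).

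Dhx8, which releases the finished mRNA from the spliceosome, had 7 peaks, all of them coding, on the plus strand of chromosome 11. In the order of the transcript the authors' deposited table lists log2 fold changes of 0.38, -1.82, -3.43, -2.11, -1.33, 4.03 and -0.83. The lower call was the peak at chr11:101738538-101738562 (adjusted p = 0.00079), and the higher call was the peak at chr11:101740805-101740865 (adjusted p = 0.00013), per the authors' deposited table. The called peaks thus lay on either side of the pair at -2.11 and -1.33, of which neither was called. Both directions were therefore found within the coding sequence of a single gene.

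Ddx42, which associates with the SF3b part of the U2 snRNP, carried a lower peak in its 3′ UTR. That peak, at chr11:106248660-106248697 (plus strand), had -3.39 in the authors' deposited table (adjusted p = 0.0037). The peak of 11 nucleotides that touches it on the 5′ side had -2.84 in the authors' deposited table and, with an adjusted p of 0.083, was the uncalled helicase peak nearest to the threshold. The 4 intronic peaks of Ddx42 had 0.63, 0.33, -0.58 and -1.91 in the authors' deposited table. All 4 were closer to 0 than the pair in the 3′ UTR.

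**Figure D2:**
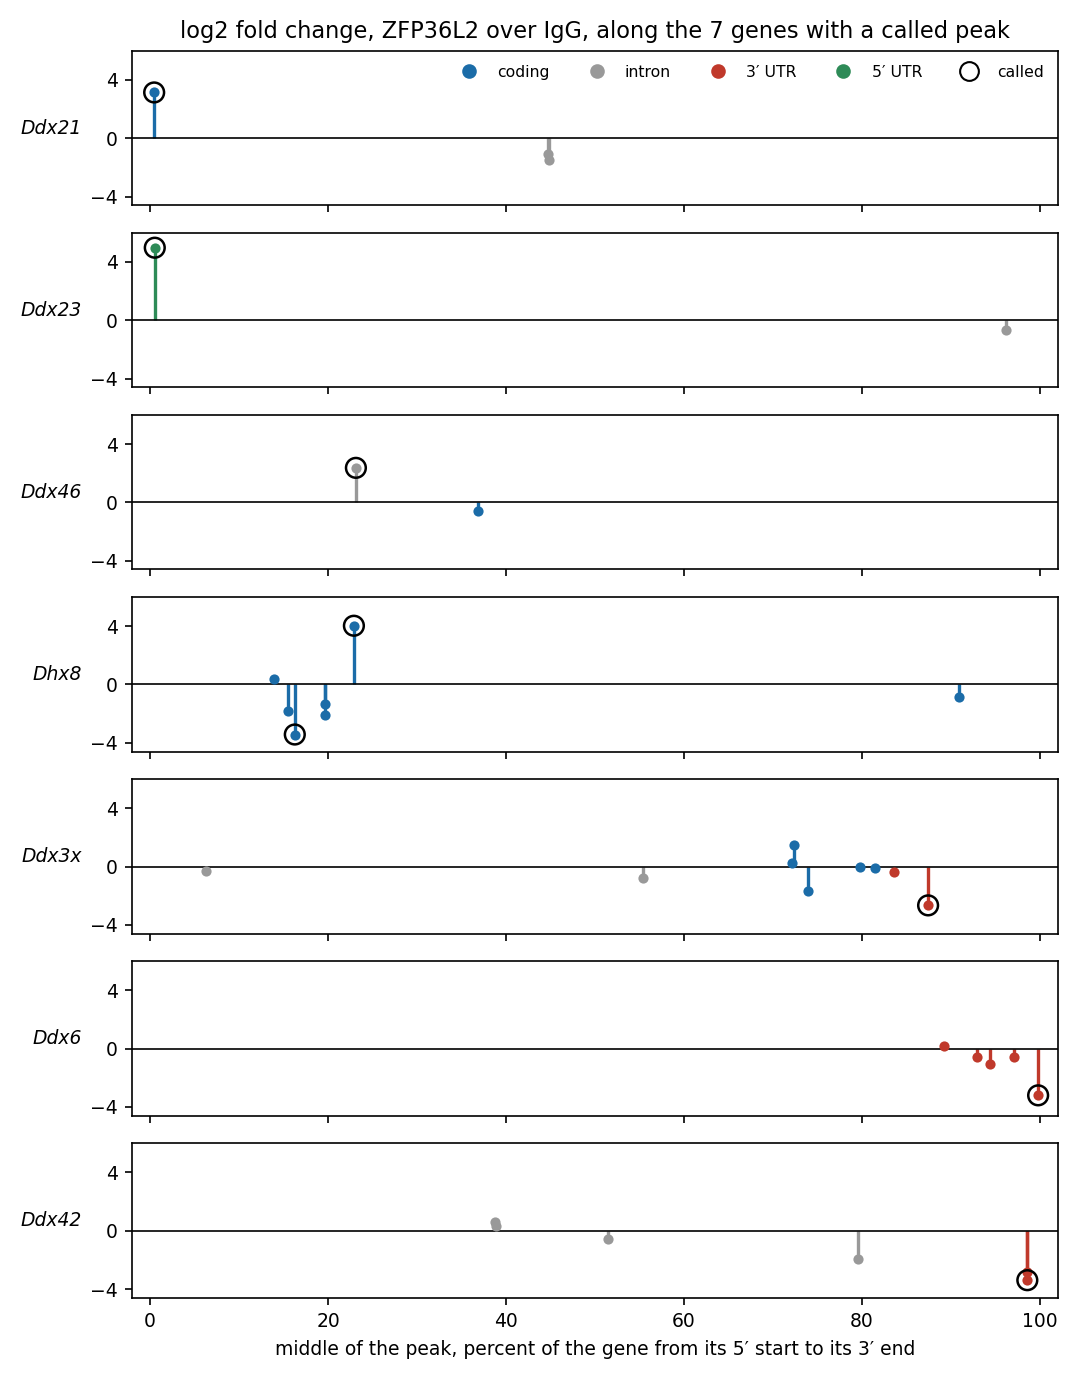
Log2 fold change of ZFP36L2 over IgG, as deposited, against the position of each peak's middle in percent of the RefSeq gene span from its 5′ start, for the 7 genes with a called peak (34 peaks, points coloured by region, rings mark calls). The calls of Ddx21 and Ddx23 sit at the 5′ start, and those of Ddx3x, Ddx6 and Ddx42 sit in the 3′ UTR and point down.

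The other 12 splicing helicases had no called peak. Dhx15, which takes spent spliceosomes apart, shared with Ddx11 the highest number of peaks, 13, and they ran from -1.63 to 1.49 in the authors' deposited table. Dhx16, a helicase needed for the catalytic step of splicing, had 5 coding peaks between -0.56 and 1.23, per the authors' deposited table. Dhx32 had 8 peaks between -2.03 and 0.28 in the authors' deposited table, the best supported at an adjusted p of 0.28. Ddx17 and Ddx5, paralogues that act as coactivators of transcription and in splicing, had 9 peaks from -1.75 to 0.85 and 1 intronic peak at 1.30, as read from the authors' deposited table. Ddx39b, which loads export factors onto spliced mRNA, had 1 intronic peak of 5 nucleotides at 0.02, whereas its paralogue Ddx39 had -2.15, -0.55 and -0.08 in the authors' deposited table. Over the 16 genes placed in the splicing group, 3 of 70 peaks were higher and 2 lower, beside 2.22% and 5.44% of all peaks. The median of the group was -0.56.

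The 5 helicases of mRNA export, translation and decay had 22 peaks, of which 0 were called higher and 2 lower, beside shares of 2.22% and 5.44% over the table. Ddx6, the P-body helicase that represses translation and promotes decapping, had all 5 of its peaks in the 3′ UTR. From 5′ to 3′ they had 0.15, -0.55, -1.05, -0.56 and -3.20 in the authors' deposited table. The last of them, at chr9:44640624-44640675 (plus strand), was called lower in the authors' deposited table (adjusted p = 0.003) and ended at base 57 counted back from the end of the gene. The other 4 were not called, so the call fell on the most 3′ of the 5 peaks.

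Ddx3x, which helps ribosomes scan structured 5′ leaders, had 9 peaks. The more 3′ of its 2 peaks in the 3′ UTR, at chrX:13292271-13292310 (plus strand), had -2.66 in the authors' deposited table (adjusted p = 0.038), while the other was listed at -0.34 (adjusted p = 1). Its 5 coding peaks ran from -1.66 to 1.47 and its 2 intronic peaks had -0.29 and -0.77 in the authors' deposited table. Of the 8 called helicase peaks, this one was nearest to the threshold. How the authors assigned reads shared with near-identical copies of a gene is unknown here, a limit for Ddx3x and for the pairs Ddx19a with Ddx19b and Ddx39 with Ddx39b.

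Ddx19a and Ddx19b, paralogues of the helicase that remodels mRNA at the nuclear pore, lie 5362 bases apart on chromosome 8. Ddx19a had -2.24 and -2.12 in touching 5′ UTR peaks and -1.75 in coding sequence, and Ddx19b had 0.32, 0.15 and 0.09 in coding sequence, in the authors' deposited table. The values of these genes did not overlap, but no peak of either was called (lowest adjusted p = 0.54 and 1), and the difference between the genes was not tested. Dhx34, which takes part in nonsense-mediated decay, had 2 coding peaks at -1.03 and -1.70 in the authors' deposited table.

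The remaining members had no called peak. Ddx11, a DNA helicase needed for sister chromatid cohesion, had 13 peaks from -2.41 to 0.77 in the authors' deposited table. Dhx57 had 10 peaks, all below 0, from -2.03 to -0.19, per the authors' deposited table. Dhx9, which unwinds long RNA duplexes in the nucleus, had 6 peaks from -1.32 to 0.41, and Ddx1, a subunit of the tRNA ligase complex, 3 intronic ones from -1.94 to -0.81, in the authors' deposited table. The viral RNA sensors Ddx58 (RIG-I) and Dhx58 had 3 peaks and 1 peak, all between -2.14 and -1.64, and Dhx30, a mitochondrial ribosome assembly factor, had -0.80 and -1.97 in the authors' deposited table. Ddx4, the germ cell helicase known as vasa, had 2 touching intronic peaks at -2.71 and -2.32 in the authors' deposited table (lowest adjusted p = 0.3).

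By transcript region, the helicase genes had more of their peaks in coding sequence than the table as a whole. Coding sequence held 86 of 176 helicase peaks (48.9%), against 37% of all peaks. Introns held 69 (39.2%), against 42.3%, and 3′ UTRs held 13 (7.39%), against 13.6%. The 5′ UTR held 6 peaks (3.41%, against 2.21%), and the class other held 2 peaks of Ddx58. These shares are counts over peaks that often touch, and no test was made of them.

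The 13 peaks in 3′ UTRs came from 6 genes, and 3 of them (23.1%) were called lower, against 4.83% of all 3′ UTR peaks. No helicase peak in a 3′ UTR was called higher, and 1.46% of all 3′ UTR peaks were. Besides the peaks of Ddx3x, Ddx6 and Ddx42 described above, this region held 1 peak of Ddx17 (-1.05), 2 of Ddx39 (-0.55 and -0.08) and 1 of Dhx32 (-0.71), in the authors' deposited table. The higher calls were 2 of 86 coding peaks (2.33%, against 2.35% of all coding peaks), 1 of 69 intronic peaks (1.45%, against 2.17%) and 1 of 6 peaks in 5′ UTRs (16.7%, against 3.18%). Of the coding peaks, 1 (1.16%) was called lower, against 3.74% of all coding peaks, and none of the 69 intronic peaks was, against 7.04% of all intronic peaks. None of the 6 peaks in 5′ UTRs was called lower either, against 5.78%. Among intronic helicase peaks below 0, 1 peak each of Ddx18, Dhx32 and Ddx4 reached a p under 0.05 before adjustment (0.019, 0.035 and 0.039 in the authors' deposited table).

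Of the 4 higher helicase peaks, 2 began within 200 nucleotides of the gene's start, and none of the 4 lower ones did. Over the table, the peaks counted were those with 1 gene name, matched directly to RefSeq, that lie inside the gene. Of these, 5.75% of 1131 higher peaks and 2.25% of 2883 lower peaks began that close to the start. Of all 176 helicase peaks 6 did (3.41%, against 1.82% of the 53292 peaks so chosen). The other 4 were peaks of Ddx19a and Ddx11 in 5′ UTRs, with values from -2.41 to -0.52 in the authors' deposited table, so closeness to the start did not go with a high value in each gene.

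The level of the fold changes was also compared with the table. The median log2 fold change of the helicase peaks in the authors' deposited table was -0.72 (quartiles -1.66 and 0.04), against -1.06 (-1.90 and -0.06) for all peaks. Values below 0 made up 73.9% of helicase peaks and 76.2% of all peaks. Within coding sequence the medians were -0.37 for helicase peaks and -0.72 for all peaks, and within introns -0.87 and -1.31, in the authors' deposited table. The median over genes of each gene's median was -0.68 for helicase genes and -1.27 for all genes. The 6 helicase peaks in 5′ UTRs had a lower median, -1.32 against -1.07, as did the 2 of the class other, -2.02 against -1.33. In 3′ UTRs the median was -0.71 for helicase peaks and -1.08 for all peaks, while the lower quartile was -2.66 against -1.87. The median of helicase peaks was thus nearer 0 over all regions together and in coding sequence, introns and 3′ UTRs, but not in 5′ UTRs or the class other, and the distributions overlapped widely.

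**Figure D3:**
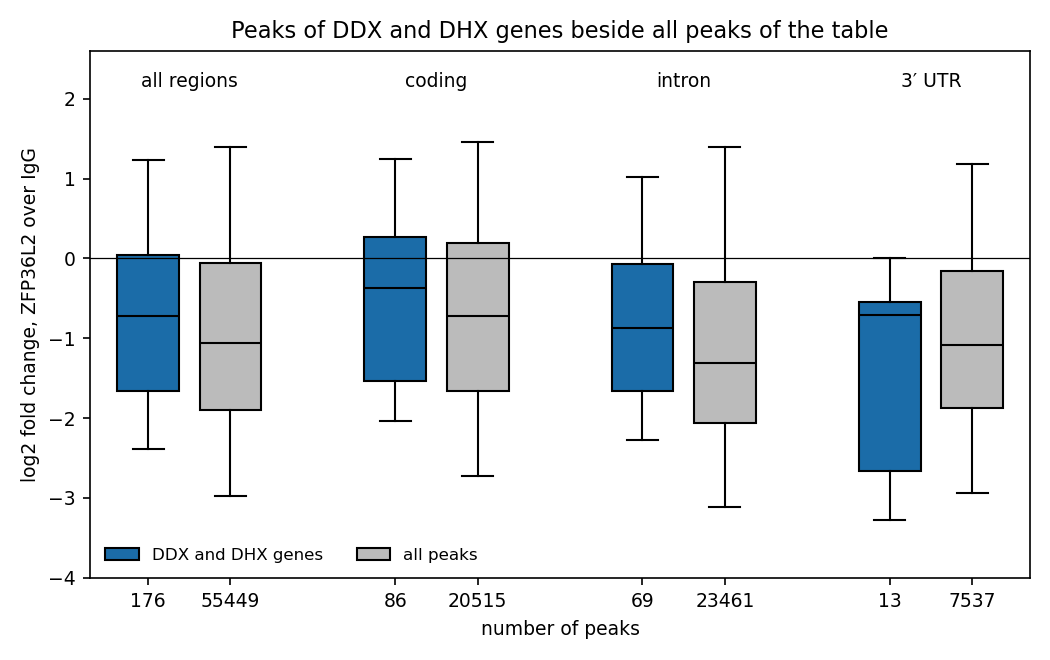
Log2 fold change of ZFP36L2 over IgG, as deposited, for peaks of DDX and DHX genes (blue) and all peaks of the table (grey), over all regions and in coding sequence, introns and 3′ UTRs. Boxes span the quartiles with the median as a line, whiskers run from the 5 to the 95 percentile, and the numbers of peaks stand below; the boxes overlap in every region shown.

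Peaks far from 0 made up smaller shares among helicase genes than over the table. Of the 176 peaks, 12 (6.82%) reached 1 or more on the log2 scale and 76 (43.2%) reached -1 or less, against 8.16% and 51.8% of all peaks. The adjusted p was 1 as deposited for 86.9% of helicase peaks, against 74.6% of all peaks. DDX peaks had a median of -0.56 and DHX peaks one of -0.80 in the authors' deposited table. Of 36 helicase genes with at least 2 peaks, 16 had all peaks below 0, 2 (Ddx19b and Ddx56) had all above 0, and 18 had peaks on both sides. The same counts were not made over all genes, so whether the helicase genes differ in this is unknown.

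Other helicases, and genes that work beside the DDX and DHX helicases, were counted in the same way. Over the table, 2.22% of peaks were higher and 5.44% lower, and 17.3% of all genes had a lower peak. RNA helicases of other names had no higher peak among 118 and 6 lower ones (5.08%), in 4 of 20 genes. Among these, the authors' deposited table gives Znfx1 at -3.55, Helz2 at -3.05 and Mov10 at -3.00. DNA helicases had 1 higher and 11 lower peaks among 128 (0.781% and 8.59%). Mcm2, a subunit of the replicative helicase, had both the higher one (4.52) and 4 of the lower ones in the authors' deposited table.

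G-patch proteins, several of which switch on DHX helicases such as Dhx15, had 1 higher and 13 lower peaks among 113 (0.885% and 11.5%). Rbm10, a regulator of alternative splicing, held 7 of the 13, its 7 peaks all being lower, and the authors' deposited table gives the best of them as -6.28 (adjusted p = 1.7e-14). Among exon junction and export proteins, 1 of 81 peaks was higher (1.23%) and 5 were lower (6.17%). The higher one was in Casc3, a core exon junction protein (5.48 in the authors' deposited table, adjusted p = 8.3e-13). Of 139 peaks of eIF4F and P-body proteins, the partners of Ddx6 and Ddx3x, 7 were higher (5.04%) and 8 lower (5.76%). Pabpc1, the cytoplasmic poly(A)-binding protein, and Cnot1, on which the CCR4-NOT complex assembles, had both kinds, and Cnot1 alone, with 15 peaks, held 5 of the 7 higher ones. The best-supported lower peak of this list lay in the 3′ UTR of Eif4g2 (-4.97 in the authors' deposited table, adjusted p = 7.1e-09). Of the 14 peaks of Eif4g2, 2 were lower. None of these lists was tested against another.

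**Figure D4:**
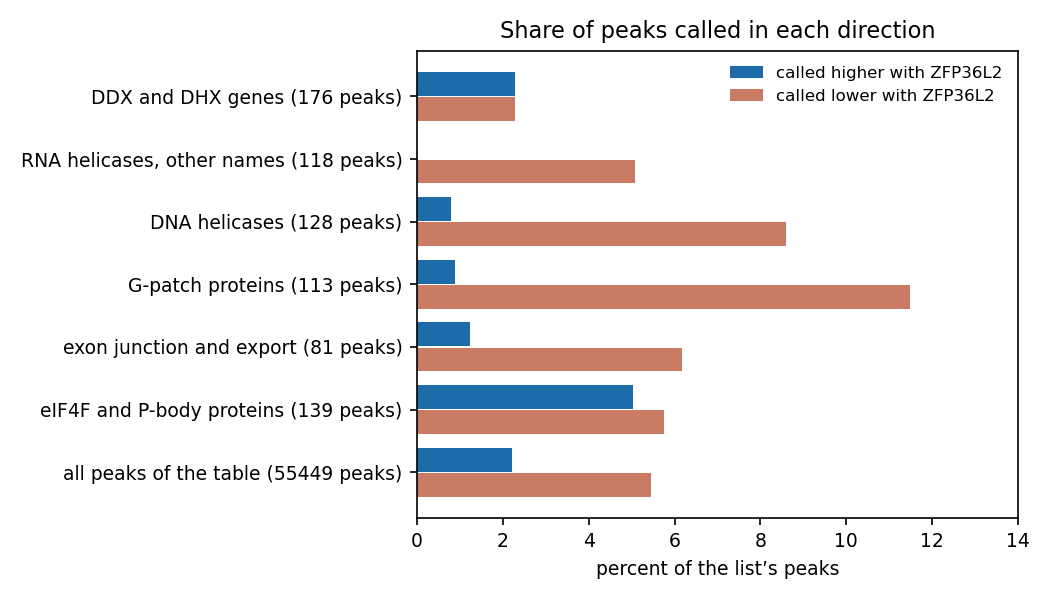
Percent of peaks called higher (blue) or lower (brown) with ZFP36L2 than with IgG, for DDX and DHX genes, lists of related genes and all peaks of the table, with the number of peaks of each. Helicase genes have 2.27% in each direction, beside 2.22% higher and 5.44% lower over the table.

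Marker genes of the labelled cell type and of others were counted in the same table. A call compares the 2 antibodies and does not measure expression, so these counts cannot decide the cell type. Of 8 Leydig cell markers, 5 had peaks (Lhcgr, Star, Cyp11a1, Nr5a1 and Prlr), whereas Cyp17a1, Hsd3b1 and Insl3 had no peaks. Of the 80 Leydig marker peaks, 35 (43.8%) were called higher, 33 of them in Cyp11a1. Lhcgr had 1 higher peak of 16 and Prlr 1 of 20, while Star and Nr5a1 had no called peak. Cardiac muscle markers, which do not belong to the labelled cell type, had 742 peaks in 5 of 5 genes. Of these, 32 were higher (4.31%) and 1 was lower (0.135%), beside 2.22% and 5.44% of all peaks. Most came from very long genes, with 566 peaks and 18 of the higher ones in Ttn, and 117 and 12 in Ryr2. Actc1 had no called peak. Sertoli cell markers had 1 higher peak among 11 (9.09%), and macrophage markers 2 higher and 1 lower among 26 (7.69% and 3.85%). Of the germ cell markers Ddx4 alone had peaks, neither of them called. The part of these cell types in the helicase values was not tested. Zfp36l2 itself was not analysed here.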

How the data were processed

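Per the submitters' processing notes, the tools were DESeq2 1.34.0, STAR 2.7.7a, cutadapt 3.2 and UMI-tools 1.1.1 on build mm10. No role is stated for them. The peak calling, the use of inputs and the scaling of fold changes were not given in the sources used here. In the table deposited by the authors, each peak has a log2 value for ZFP36L2 over IgG, a direction read from the table's name. Both kinds of p-value stand there on the −log10 scale, as deposited, and were converted back. Recomputing the Benjamini-Hochberg adjustment over all peaks changed them by at most 0.0099 on that scale. The table has 0 columns of a library, so depth is unknown and no standard error or interval could be given.

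Calls used the authors' adjusted p with no test added, and gene lists were described by counts. Starts were converted to 1-based positions. No helicase peak had several gene names, and 561 peaks of the table did. Of the 176 helicase peaks 98 touch another, so peaks are not independent. The planned fits to counts per library did not apply to a table of comparisons. Counting was tested on simulated data. Python 3.11.15 and pandas 2.3.3 were used. Members, lists and thresholds were chosen with earlier results of these data known. Each member was placed in 1 role group by the role taken as its main one, and these data do not test that placing. Named were all members with a called peak, the 10 with the most peaks and a fixed set of well-known helicases. For the lists of related genes, the plan was to name up to 4 genes per list and direction by adjusted p. Only some of the genes that this list rule gives were named, so they are a selection. A gene that this rule also names is not reported here. Some further members were named after their values were seen. RefSeq (GRCm38.p6) gave gene spans and promoter sequences.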

Additional observations from a re-analysis of the deposited data

How the results depend on the processing

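Each of the 4 counts of called helicase peaks and genes was recomputed under the alternatives, with the median, the region shares and the peaks per gene. Higher calls numbered 4 under each alternative except without Ddx21, where 3 were left. Lower calls numbered 3 at an adjusted p under 0.01, with 1 peak per gene and without Dhx8. They numbered 9 in 8 genes at an unadjusted p under 0.05, an alternative chosen after seeing the data, and 10 in 8 genes when RNA helicases of other names were added. Merging touching peaks, setting no minimum log2 fold change, a minimum of 2 and centring on the median of all peaks left both counts at 4. These alternatives all kept the deposited adjusted p, and no uncalled helicase peak had one under 0.083. Merging kept the smallest adjusted p of each stretch, and no called helicase peak touches another called one. The called peaks also lie too far from 0 for the other settings to remove them. The counts could therefore not change, so these alternatives say nothing about stability. The share of helicase peaks in coding sequence, 48.9% as reported, was 42.9% with 1 peak per gene and 53.5% after merging. The share in 5′ UTRs, 3.41% as reported, was 7.14% and 2.36% under the same alternatives. The shares of all peaks were not recomputed in these ways. Whether the differences from the table hold under them is therefore unknown. The median log2 fold change was -0.37 over coding peaks and between -0.77 and -0.68 in the other alternatives. No paired analysis was possible because the table has no values of single libraries, and for the same reason no library could be left out. Depth is unknown, so an uncalled peak does not show that its level was equal with both antibodies.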

Other observations

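Helicase peaks that touch their neighbour came in 49 pairs, and in 43 of them (87.8%) the piece with the lower genome coordinate was the shorter one. This held on the plus strand (14 of 16 pairs) and on the minus strand (29 of 33 pairs), so the short piece was at the 5′ side of the RNA on the plus strand and at the 3′ side on the minus strand. Over all genes the share was 92.5% of 14301 pairs, with a median length of 12 nucleotides for the piece at the lower coordinate and 37 for the other. The pieces of a pair are neighbouring bases of the same RNA, yet by the authors' deposited table they differed on the log2 scale by a median of 0.34 in helicase pairs and 0.28 over all genes. In 5 of the 49 helicase pairs (10.2%) the difference was over 1, as in 9.71% of all pairs. The widest was in an intron of Ddx20, a component of the SMN complex, where adjoining pieces of 13 and 43 nucleotides had 1.64 and -1.88 in the authors' deposited table, neither of them called. The cause of this order of lengths was not tested.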
